A study of Mus musculus with 6 samples.

Results

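The clustered replication-dependent histone genes are the copies of the H1, H2A, H2B, H3 and H4 genes that sit together in arrays on a few chromosomes. They were taken from the count table as every row whose symbol names a gene of the Hist1, Hist2, Hist3 or Hist4 cluster and one of the 5 histone classes, leaving out symbols marked as pseudogenes with -ps. This gave 69 of 49492 rows, of which 6 encode H1, 20 H2A, 18 H2B, 12 H3 and 13 H4. By symbol, 56 belong to Hist1, 10 to Hist2, 2 to Hist3 and 1, Hist4h4, to Hist4. On GRCm38 (the mm10 assembly) these lie on chromosomes 13, 3, 11 and 6, respectively. Hist1h2al, at chr13:51202727-51203065, lies far from the other Hist1 genes, which all lie between chr13:21715763 and chr13:23934851. It is counted with Hist1 here because of its symbol. The annotation classes 2 of the 69, Hist1h2aj and Hist1h2al, as pseudogenes.

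The RNA came from splenic CD8 T cells of C57/BL6 mice aged 6 to 8 weeks, described as naive at purification and then kept for 24 hours with anti-CD3 (1 µg/ml) and anti-CD28 (1 µg/ml), antibodies that stimulate the T cell receptor and its co-receptor. All mice carried OT-I, a transgenic T cell receptor for an ovalbumin peptide. The 3 libraries labelled WT (replicates 1 to 3) are of wild type OT-I genotype, and the 3 labelled KO (replicates 4 to 6) are of NIK-CD4Cre-OT-I genotype. In the latter, Cre under Cd4 control, which acts in developing T cells before the CD4 and CD8 lineages part, is directed at NIK, the kinase of the noncanonical NF-kB pathway that Map3k14 encodes. Whether the 3 libraries of a group stand for 3 mice is not in the labels, and p-values therefore speak only of the spread among libraries. Xist levels, given below, place mice of both sexes in each group, so a group does not come from 1 mouse. The spread may still be partly technical.

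A cell that copies its DNA must package the new copy, and clustered histone genes supply most of the protein for this. The core histones H2A, H2B, H3 and H4 form the nucleosome, and H1 binds the DNA between nucleosomes. Their messages are made mainly in S phase and, unlike nearly all other mRNAs, usually end without a poly(A) tail. The end is formed instead at a short hairpin in the 3′ untranslated region, bound by the stem-loop binding protein SLBP, with a cut a few bases after it that needs the U7 small nuclear RNA. A library made by capture on the poly(A) tail therefore recovers such messages poorly, while a library made from RNA depleted of ribosomal RNA keeps them. Naive CD8 T cells do not divide, and stimulation through the receptor brings them into the cell cycle.

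The hairpin is shown here because it sets these genes apart from other mRNAs in how their 3′ end is made. It was searched for after the stop codon of each annotated transcript (GENCODE M21) as an arm GGNNCT, a loop of 4 bases and the reverse complement of the arm, 16 bases in all with 6 base pairs. The highest expressed member of each class with an annotated hairpin is given first, followed by members with less common forms. Capitals mark the 16 bases of the hairpin and lower case the 5 bases on each side.
Hist1h1c (H1): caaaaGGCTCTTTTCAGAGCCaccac
Hist1h2ae (H2A): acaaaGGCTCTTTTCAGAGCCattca
Hist1h2bj (H2B): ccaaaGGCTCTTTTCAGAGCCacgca
Hist1h3c (H3): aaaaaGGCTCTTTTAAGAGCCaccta
Hist1h4b (H4): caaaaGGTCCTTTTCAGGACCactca
Hist1h4i (H4): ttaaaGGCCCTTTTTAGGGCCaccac
Hist1h3g (H3): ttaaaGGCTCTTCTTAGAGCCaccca

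On GRCm38 these 16 bases lie at chr13:23739512-23739527 (plus strand) for Hist1h1c, chr13:23570668-23570683 (minus) for Hist1h2ae, chr13:22043638-22043653 (plus) for Hist1h2bj and chr13:23745047-23745062 (minus) for Hist1h3c. Those of Hist1h4b lie at chr13:23757366-23757381 (plus), those of Hist1h4i at chr13:22040966-22040981 (minus) and those of Hist1h3g at chr13:23535889-23535904 (plus). All lie in the annotated 3′ untranslated region of the gene. Hist1h3g was chosen for its loop after the values were seen.

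In all, 46 of the 69 members had a hairpin of this form, in 8 distinct sequences. It began 22 to 59 bases after the stop codon, with a median of 32. The most common sequence, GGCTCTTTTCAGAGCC, was found in 26 members of the H1, H2A, H2B and H3 classes and in 0 H4 genes. The sequence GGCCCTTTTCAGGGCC was found in 7 members, all of them H4 genes. The 4 forms found in H4 genes were found in no other class, while 2 of the other forms were each shared by at least 3 of the classes H1, H2A, H2B and H3.

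Of the 23 members with no hairpin found, 17 could not have shown one. Among these, Hist1h2aj and Hist1h2al, classed as pseudogenes, have no annotated stop codon, and the rest have fewer than 16 annotated bases after it. The other 6, with longer annotated ends, were Hist1h1a, Hist1h2bc, Hist1h2bq, Hist1h2br, Hist2h2be and Hist2h3b. Among coding genes with at least 16 bases after the stop codon, 46 of 52 members and 52 of 20914 other genes (0.249%) had the hairpin. One of the others is H2afx, the variant H2A that is phosphorylated at DNA breaks, with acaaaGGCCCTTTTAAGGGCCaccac at chr9:44335240-44335255 (plus strand).

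A poly(A) signal, AATAAA or ATTAAA on the transcript strand, stood within the last 50 bases of the annotated transcript in 17 of those 52 members (32.7%), against 80.6% of the other coding genes. Of all 69 members, 32 had the hairpin only, 14 both features, 3 the signal only and 20 neither. Among the 20 with neither are the 17 members whose annotated ends were too short, or missing, for either to be found. A match of this kind describes the annotated sequence and does not show which end the RNA in these cells had.

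The members are close copies, which limits how well reads can be assigned to each. All 13 H4 genes encode 1 identical protein of 103 residues. By the longest annotated coding sequence of each gene, the 12 H3 genes encode 3 distinct proteins. These are shared by 7 genes, by 4 genes (Hist1h3a, Hist1h3g, Hist1h3h and Hist1h3i) and held by Hist2h3c1 alone. For Hist2h3c1, which has 2 annotated transcripts, that sequence gives 181 residues, against 136 for the other H3 genes, so its place apart rests on that model. The 18 H2A genes that could be translated encode 9 proteins, the largest group being 9 genes with the same one, and the 18 H2B genes encode 12. The H2B number also rests on the models, since Hist1h2bp has 138 residues and Hist1h2bq and Hist1h2br 134, against 126 for Hist1h2bj. The 6 H1 genes all differ. In 33 of the 69 members at least 50% of the 50-base stretches of the transcript are found in no transcript of another annotated gene. With 100-base stretches 40 reach that share. Matches on either strand and to overlapping genes were counted as shared. In 13 members fewer than 10% of the 50-base stretches are unique, so their counts, high or low, are uncertain. A further limit is that 26 members overlap another annotated gene, 7 of them on the same strand and 23 on the opposite strand, and the sources used here do not give the strand setting of the counting. The opposite-strand overlaps fall on every H2A gene and otherwise only on Hist1h4b, Hist2h2bb and Hist2h3b. Comparisons of H2A with the other classes therefore carry this limit, and its part in their levels was not tested.

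Gene counts summed to between 41311346 and 47851445 per library, and a count of 3 corresponds to 0.0627 to 0.0722 CPM (counts divided by library size after TMM scaling). The targeted gene did not set the groups apart. Map3k14 stood at 53.6, 65.5 and 65.3 CPM in the WT libraries and at 50.7, 64.5 and 54.7 CPM in the KO libraries (log2 fold -0.12, SE 0.11, adjusted p = 0.81 by edgeR). A count over the whole gene cannot show the loss of some exons and is an incomplete check, and every direction here is between libraries as labelled. The cells carried CD8 T cell markers, with Cd8a, Cd8b1, Cd3e, Cd3g, Cd3d, Lck and Thy1 together at 2374 to 2542 CPM. Of the other cell types' markers, 3 CD4 T cell genes summed to 4.18 to 13.1 CPM, 6 B cell genes to 325 to 378 CPM (mostly Ighm), 6 myeloid genes to 2.63 to 9.51 CPM and 6 erythroid genes to 0.0909 to 0.345 CPM. Mice of both sexes were in each group, since Xist, made by the inactive X chromosome, was at 1964 to 2069 CPM in 3 libraries (WT replicates 1 and 3, KO replicate 6) and under 1 CPM in the other 3. The member sums given next did not follow this split.

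Histone genes of the clusters were present at low levels throughout. Together they took 3198, 2341 and 2441 counts in the WT libraries (replicates 1, 2 and 3) and 3015, 2977 and 2613 counts in the KO libraries (replicates 4, 5 and 6). This was 0.00508% of all gene counts in the lowest library (WT replicate 2, 95% exact binomial interval 0.00488% to 0.00529%) and 0.00710% in the highest (WT replicate 1, 0.00686% to 0.00736%). The intervals cover counting error only. In CPM the 69 members summed to 71.2, 51.2 and 52.7 in the WT libraries and to 63.0, 67.7 and 62.9 in the KO libraries. WT replicate 1 was the highest of all and the other 2 WT libraries the lowest, so the groups overlapped.

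H2B genes made up 26.2% of this sum, H3 genes 24.4%, H4 genes 23.1%, H2A genes 17.9% and H1 genes 8.49%. Every H2A gene overlaps a gene on the opposite strand, so the H2A share carries the strand limit given above. Genes with a Hist1 symbol gave 90.1% of the sum over all 69 members. Of the 69 members, 52 had a count in every library and 16 had fewer than 20 counts in all 6 libraries together. A mean of 1 CPM was reached by 21 members, of 3 CPM by 7, and of 4 CPM by Hist1h3c alone, at 4.33 CPM. The median member stood at 0.483 CPM.

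To compare genes with one another, levels are given as CPM per kb of annotated exon, with the SD over the 6 libraries. The median member had a level of 0.700 CPM per kb. Hist1h4b, an H4 gene, had the highest mean level at 7.58 CPM per kb ± 1.22 (SD, n = 6), but its order against the H2A gene Hist1h2ai at 7.37 ± 1.35 is not resolved. In the H4 class it was followed by Hist1h4i at 4.26 ± 2.11 and Hist1h4d at 3.05 ± 0.429 CPM per kb. The gap between Hist1h4i and Hist1h4d was smaller than the SD of Hist1h4i, so their order is not resolved. In Hist1h4b only 24.1% of the 50-base stretches are unique, and this gene overlaps another on the opposite strand. Its level, and the ratios to it given below, carry both limits, whose part was not tested.

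Among the H2A genes the highest levels were those of Hist1h2ai (given above), Hist1h2ak (4.43 CPM per kb) and Hist1h2ae (3.74). The first and second of these have no annotated untranslated end, and Hist1h2ai is among the members with few unique stretches (9.88% of 50-base stretches). Among the H2B genes they were those of Hist1h2bj (6.79 CPM per kb), Hist1h2bk (3.25) and Hist1h2bm (2.96). Among the H3 genes they were those of Hist1h3c (6.88 CPM per kb), Hist1h3a (6.03) and Hist1h3e (2.55).

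The highest linker genes were lower than the highest genes of each core class, although the H1 median, 0.506 CPM per kb, was above the H2A median, 0.328. Hist1h1c had the highest level of the H1 class at 1.30 CPM per kb ± 0.132 (SD, n = 6), followed by Hist1h1e at 0.865 ± 0.207 and Hist1h1a at 0.536 ± 0.209. By library, Hist1h1c had 2.09, 1.75 and 2.01 CPM in WT replicates 1 to 3 and 2.38, 1.98 and 1.97 CPM in KO replicates 4 to 6. These 6 values differed by no more than counting error would give, with a chi-square per degree of freedom of 0.979.

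**Figure D1:**
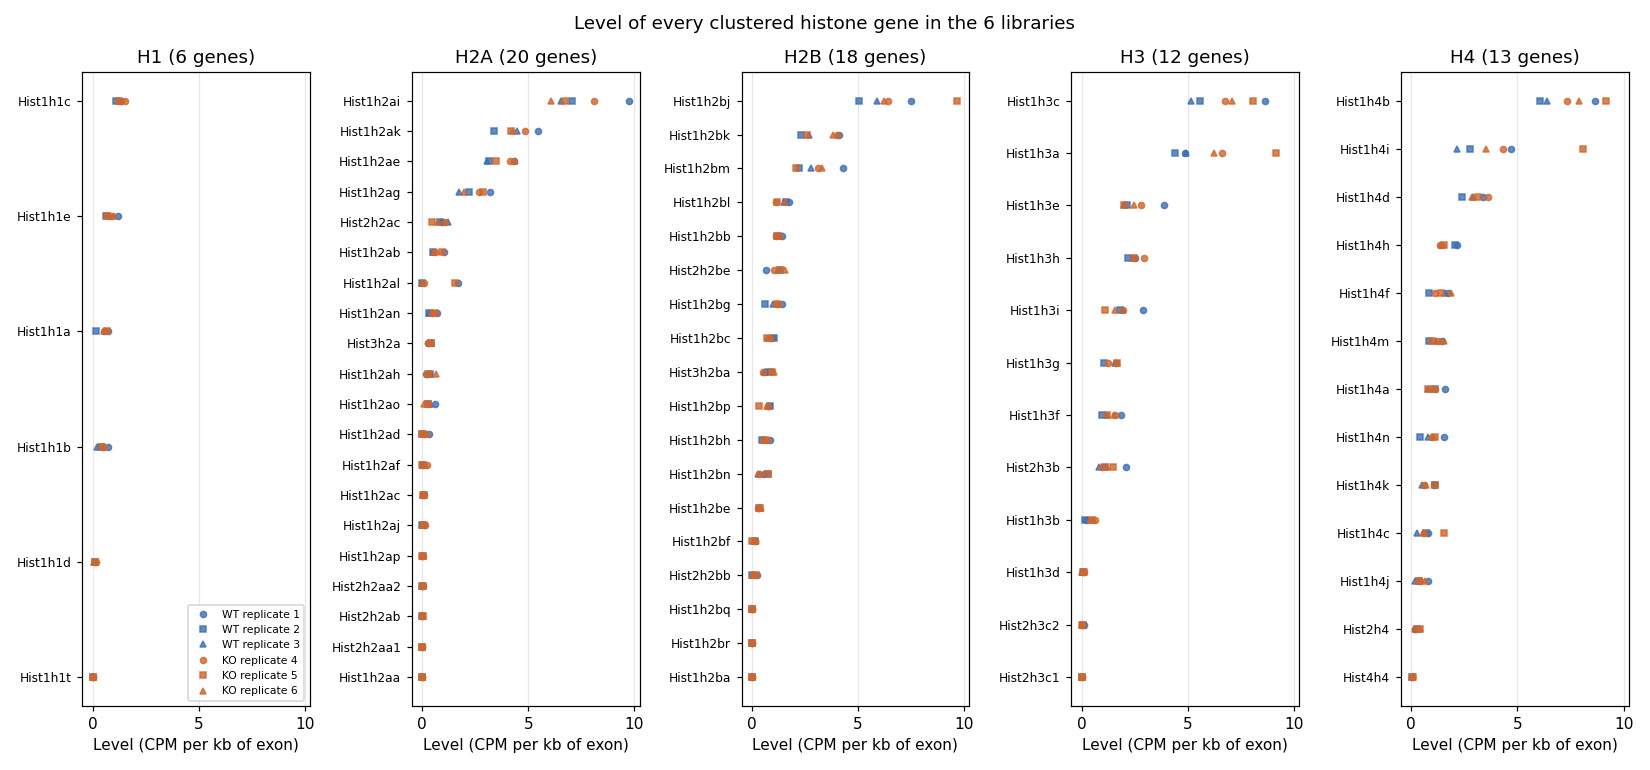
Level of each of the 69 clustered histone genes in CPM per kb of exon (linear axis), 1 panel per histone class and 1 point per library, with WT libraries in blue and KO libraries in orange. Within each core class a few genes stand between about 2 and 10, above class medians of 0.328 (H2A), 0.725 (H2B), 1.43 (H3) and 1.07 (H4). The highest H1 gene, Hist1h1c, averages 1.30 CPM per kb.

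The order within a class depends on the length used, because annotated ends differ from 0 to several kb. Per kb of coding sequence, the highest member was Hist1h4d at 11.1 CPM per coding kb, followed by Hist1h3c at 10.5, Hist1h4i at 9.93 and Hist1h4b at 9.65. On that scale Hist2h2be, whose exons span 2620 bases, reached 8.18 CPM per coding kb, against 1.19 CPM per kb of exon. The first gene of the H1, H2A, H2B and H3 classes was the same on both scales.

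The members with 0 counts in every library were 5, and at these depths 0 counts allow up to 0.0627 to 0.0722 CPM per library. Of these, 3 are types known from the testis, the linker Hist1h1t and the core histones Hist1h2aa and Hist1h2ba. Unique 50-base stretches make up 100%, 76.2% and 61.8% of their transcripts, so shared sequence alone would not have kept reads from being assigned. Hist1h2aa also overlaps Gm44344 on the opposite strand, and with the strand setting not given its 0 is less certain. The others, Hist2h2aa1 and Hist2h3c1, have 0% unique 50-base stretches, so their 0 is uncertain. Both overlap Gm20634 on the same strand, and stretches shared with an overlapping gene also count as not unique. A share of 0% does not by itself force a count of 0, since Hist2h3b, also at 0%, had 18 to 46 counts per library.

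Levels of the clustered genes were low beside those of variant histone genes outside the clusters, most of which make polyadenylated mRNAs that are not tied to S phase. The median of 11 variant histone genes was 41.6 CPM per kb. H3f3b, which encodes the variant H3 used outside DNA replication, had a level of 151 CPM per kb, 19.9 times that of Hist1h4b, and this ratio ran from 16.3 to 25.04 over the 6 libraries. H2afz, the variant H2A found at promoters, stood at 139 CPM per kb, 18.3 times Hist1h4b. H2afx, which has both the hairpin and a poly(A) signal near its annotated end, stood at 59.0 CPM per kb, 7.79 times Hist1h4b. H3f3a, the second gene of that variant H3, had 43.2 CPM per kb. H1f0, the replacement linker histone of resting cells, had 4.43 CPM per kb, a level that 6 clustered genes exceeded, whereas per kb of coding sequence it stood at 15.5 CPM, above all 69 members and 1.40 times the highest. Per kb of coding sequence H3f3b was 98.2 times the highest member, so that gap was larger on that scale.

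Genes that are switched on with DNA synthesis were abundant in the same libraries. The median of 32 S phase genes was 24.4 CPM per kb. Pcna, the clamp that holds DNA polymerase on the template, stood at 182 CPM per kb ± 18.9 (SD, n = 6), and the replicative helicase subunits Mcm3 and Mcm6 stood at 145 and 122 CPM per kb. Pcna was 24.1 times Hist1h4b. Slbp, which encodes the hairpin binding protein, had 142.4, 122.3 and 121.8 CPM in WT replicates 1 to 3 and 155.6, 120.0 and 130.4 CPM in KO replicates 4 to 6. The RNAs of S phase genes are polyadenylated, and their summed level was 87.5 to 117.6 times that of the 69 members, depending on the library.

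A list of 11 short RNAs without a poly(A) tail was also low, with a median of 0.252 CPM per kb. Rpph1, the RNA of ribonuclease P, stood highest at 12.4 CPM per kb ± 5.15 (SD, n = 6). Rn7sk, which holds back transcription elongation factor P-TEFb, stood at 1.59 CPM per kb, and Terc, the telomerase RNA, at 0.551. Rny3, Rnu12 and Rnu7 were at 0. Several of these RNAs are shorter than the fragments most RNA libraries keep. The sources used here state the isolation of total RNA but not how RNA was selected for the libraries, and the part of that step in the low level of the clustered genes was not tested.

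**Figure D2:**
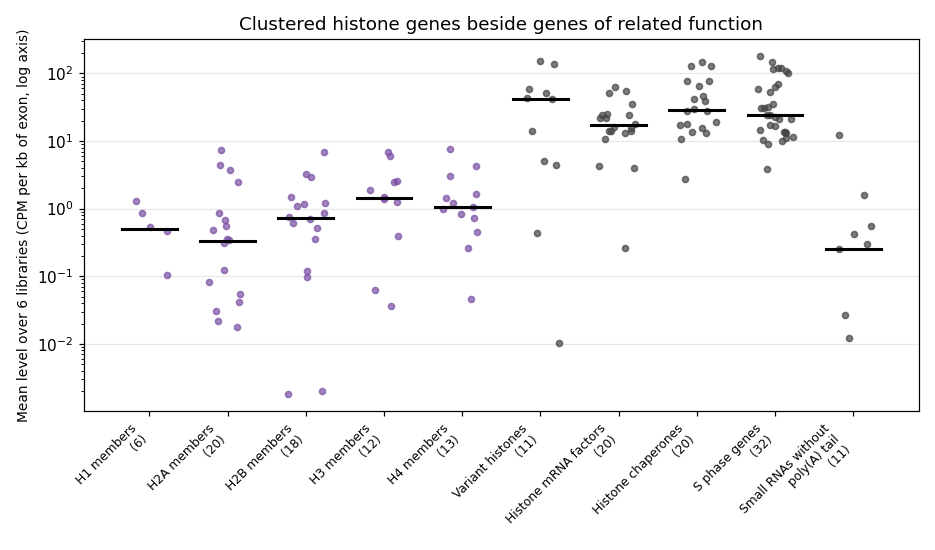
Mean level over the 6 libraries in CPM per kb of exon (log axis) for the members of each histone class and for 5 lists of related genes, with 1 point per gene, a bar at each group's median, and the number of genes in parentheses; genes at 0 count toward the medians but have no point. The 5 class medians lie below 2 CPM per kb, those of the variant histones, histone mRNA factors, chaperones and S phase genes lie between 17.1 and 41.6, and that of the short RNAs is 0.252.

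The features of the 3′ end divided the members' counts as follows. Members with the hairpin and no poly(A) signal near the annotated end, 32 genes, gave 56.2% of the members' summed CPM. The 14 with both features gave 21.7%, the 3 with the signal only 5.08% and the 20 with neither 17.0%. Of the 20 with neither, 17 have too short an annotated end, or none, for either feature to be found. These also count among the 52 members without the signal. The 52 members without the signal summed to 55.2, 36.1 and 38.8 CPM in WT replicates 1 to 3 and to 47.1, 48.1 and 44.7 CPM in KO replicates 4 to 6. The 17 with the signal summed to 16.1, 15.1 and 13.9 CPM in the WT libraries and to 15.9, 19.5 and 18.2 CPM in the KO libraries. WT replicate 1 was thus the highest library for the members without the signal and neither highest nor lowest for those with it. A few genes weigh on the second sum: Hist2h2be was at 1.72 CPM in WT replicate 1 against 2.74 to 4.09 CPM elsewhere, and Hist1h4i reached 5.89 CPM in KO replicate 5. The 14 members with both hairpin and signal, which leave out Hist2h2be, were at 14.4 CPM in WT replicate 1, second to 16.1 CPM in KO replicate 5.

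Libraries differed in these genes in a way that the genotype labels do not describe. WT replicate 1 held the highest CPM of 22 of the 46 members that passed the filter on low counts (47.8%), whereas it held the highest CPM of 16% of all 15186 genes that passed. WT replicate 2 held the lowest CPM of 18 members and WT replicate 3 of 14, against 19.8% and 14.4% of all genes. KO replicates 4, 5 and 6 held the highest CPM of 5, 6 and 8 members. The sums for H1, H2A and H3 were all highest in WT replicate 1 and lowest in WT replicate 2. The H4 sum was highest in KO replicate 5, at 18.4 CPM, and the H2B sum in KO replicate 6, at 17.8 CPM.

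The S phase genes ranked the libraries in part differently. They summed to 7035, 5422 and 5623 CPM in WT replicates 1 to 3 and to 7411, 5921 and 6171 CPM in KO replicates 4 to 6. WT replicate 1 and KO replicate 4 were thus the highest for these. Of the short RNAs without a tail, Rpph1 was highest in WT replicate 1, at 6.99 CPM against 2.12 to 4.14 CPM in the other libraries, while the other tested ones were lowest there, Rn7sk at 0.334 CPM against 0.418 to 0.682 CPM and Terc at 0.134 CPM against 0.219 to 0.293 CPM. In both sums WT replicate 2 was the lowest library and WT replicate 3 the next lowest, while the order of the other libraries differed. KO replicate 4 had 63.0 CPM of clustered histone RNA for 7411 CPM of S phase RNA, and KO replicate 5 had 67.7 CPM for 5921 CPM. The part of these measures in the histone levels was not tested, and fewer cells in S phase and less histone RNA per cell cannot be told apart in bulk RNA.

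**Figure D3:**
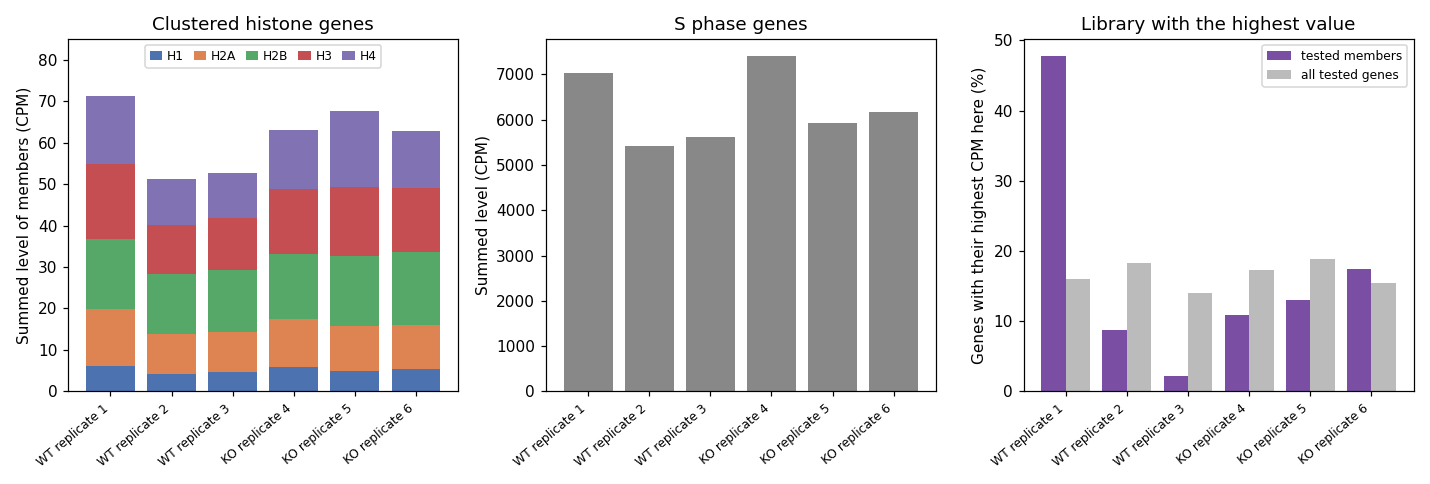
Left, summed CPM of the clustered histone genes in each library, split by class; middle, summed CPM of the 32 S phase genes; right, share of the 46 tested members and of all 15186 tested genes that have their highest CPM in each library. WT replicate 1 has the highest member sum (71.2 CPM) and holds the highest value of 47.8% of tested members against 16% of all genes, while KO replicate 4 has the highest S phase sum.

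Single members also broke from this pattern, here chosen after their values were seen. Hist2h2be, an H2B gene with a poly(A) signal and no hairpin found, was counted 77, 159 and 148 times in the WT libraries and 131, 153 and 170 times in the KO libraries. It was lowest, not highest, in WT replicate 1. Hist1h2al, annotated as a pseudogene, was counted 26 times in WT replicate 1 and 23 times in KO replicate 5, and 0 or 1 times in the other 4 libraries. Hist1h4c had 29, 26 and 11 counts in the WT libraries and 24, 55 and 18 in the KO libraries, so KO replicate 5 stood apart there as well.

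The spread of many tested members was larger than counting error. Over the 46 tested members, the chi-square of a gene's counts across the 6 libraries, against equal shares by library size, had a median of 2.45 per degree of freedom, and was above 3 in 19 and below 2 in 21. The most uneven of these was Hist1h4i at 34.0, followed by Hist1h3a at 12.2, and the untested Hist1h2al stood at 19.3. Hist1h4i counts were 154, 92 and 72 in the WT libraries and 151, 259 and 106 in the KO libraries. The H2B gene Hist1h2bj, which lies close by, had 156, 107 and 126 counts in the WT libraries and 142, 197 and 120 in the KO libraries. Both were highest in KO replicate 5, and neither separated the groups. Other genes close by did not share this. Hist1h2ag, which lies between them, was highest in WT replicate 1, at 1.56 CPM against 1.39 CPM in KO replicate 5. Hist1h2bk was also highest in WT replicate 1, at 1.96 CPM against 1.23 CPM in KO replicate 5.

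**Figure D4:**
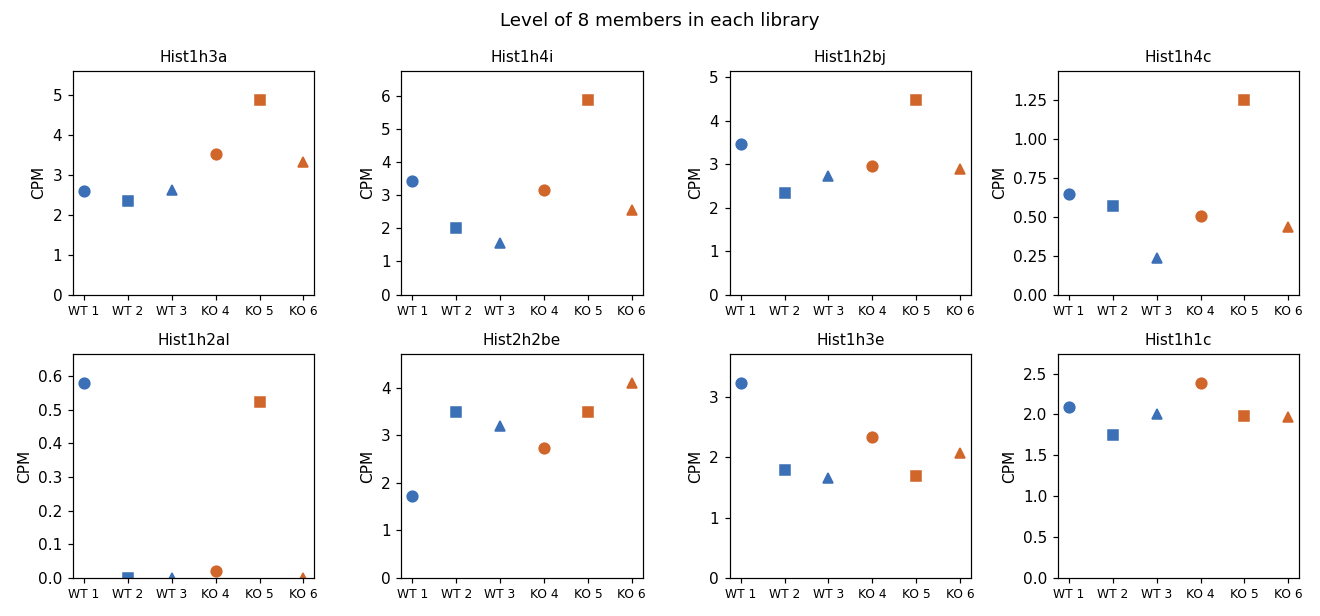
CPM (linear axis from 0) of 8 clustered histone genes in each library, with WT in blue and KO in orange and 1 point per library. Hist1h3a is higher in each KO library than in any WT library, Hist1h4i, Hist1h2bj and Hist1h4c are highest in KO replicate 5, Hist1h2al is near 0 outside WT replicate 1 and KO replicate 5, and Hist2h2be is lowest in WT replicate 1.

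The one comparison of the study sets stimulated CD8 T cells of NIK-CD4Cre-OT-I genotype against those of wild type OT-I genotype. No clustered histone gene was called as changed between the labels. In edgeR's quasi-likelihood test, with p adjusted by Benjamini-Hochberg over 15186 genes, 0 of the 46 tested members passed an adjusted p of 0.05, and the smallest adjusted p was 0.60. Over all tested genes 1 passed, or 0.00659%. DESeq2 also called 0 members (smallest adjusted p = 0.25), against 0.586% of all genes, and limma-voom called 0. At an unadjusted p under 0.05 edgeR found 1 member higher in the KO libraries and 0 lower, or 2.17%, against 7.26% of all genes. The 23 members that did not pass the filter had a mean of at most 0.189 CPM and at most 26 counts in any library, and were not tested.

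The fitted log2 folds of the 46 ran from -0.51 to 0.73 with a median of 0.11, and 30 were positive and 16 negative. Over all tested genes the median was 0.007 and 52.4% were positive. The median 95% interval of a member reached 0.66 to either side on the log2 scale, a factor of 1.58, before any adjustment for the number of genes. The members' folds depended on which WT library was in the fit: without WT replicate 1 the median was 0.27, and without WT replicate 2 it was -0.008.

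The gene with the smallest p was Hist1h3a, an H3 gene (chr13:23761853-23762386, minus strand). It had 2.61, 2.34 and 2.63 CPM in WT replicates 1 to 3 and 3.53, 4.89 and 3.32 CPM in KO replicates 4 to 6. Each KO library was above each WT library. The log2 fold was 0.63 (SE 0.18, edgeR unadjusted p = 0.0094, adjusted p = 0.60), so it did not pass the test over all genes. It was the only tested member whose groups did not overlap with KO higher, 2.17% of the 46 against 6.68% of all tested genes, and 0 members were lower without overlap, against 6.07% of all tested genes.

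The next members by p on the higher side were Hist1h4i, Hist2h4 and Hist1h3b, with log2 folds of 0.73, 0.64 and 0.68 and edgeR adjusted p of 0.71, 0.75 and 0.77. All had overlapping groups. For Hist1h4i the log2 fold was 0.29 without KO replicate 5 and 1.11 without WT replicate 1, and for Hist1h3b it was 1.45 without WT replicate 3 and 0.34 without WT replicate 2. Hist2h4, an H4 gene of the chromosome 3 cluster, had 14, 20 and 12 counts in the WT libraries and 12, 29 and 28 in the KO libraries. Hist1h3b had 6, 4 and 16 counts and 18, 13 and 10, few enough that a single library moves its fold.

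On the lower side the smallest p belonged to Hist1h3i, Hist1h4h, Hist1h2bl and Hist1h2bp, with log2 folds of -0.51, -0.35, -0.32 and -0.35 and edgeR adjusted p of 0.71 to 0.80. Hist1h3i was counted 53, 34 and 37 times in the WT libraries and 38, 20 and 27 times in the KO libraries. Hist1h4h had 45, 44 and 30 counts in the WT libraries and 30, 32 and 29 in the KO libraries. Hist1h2bl had 30, 28 and 27 counts against 21, 20 and 25. For Hist1h2bp, at 25, 27 and 24 counts against 26, 11 and 21, the log2 fold shrank to -0.08 without KO replicate 5. Hist1h3a and Hist1h3i, with folds in opposite directions, encode the same H3 protein.

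**Figure D5:**
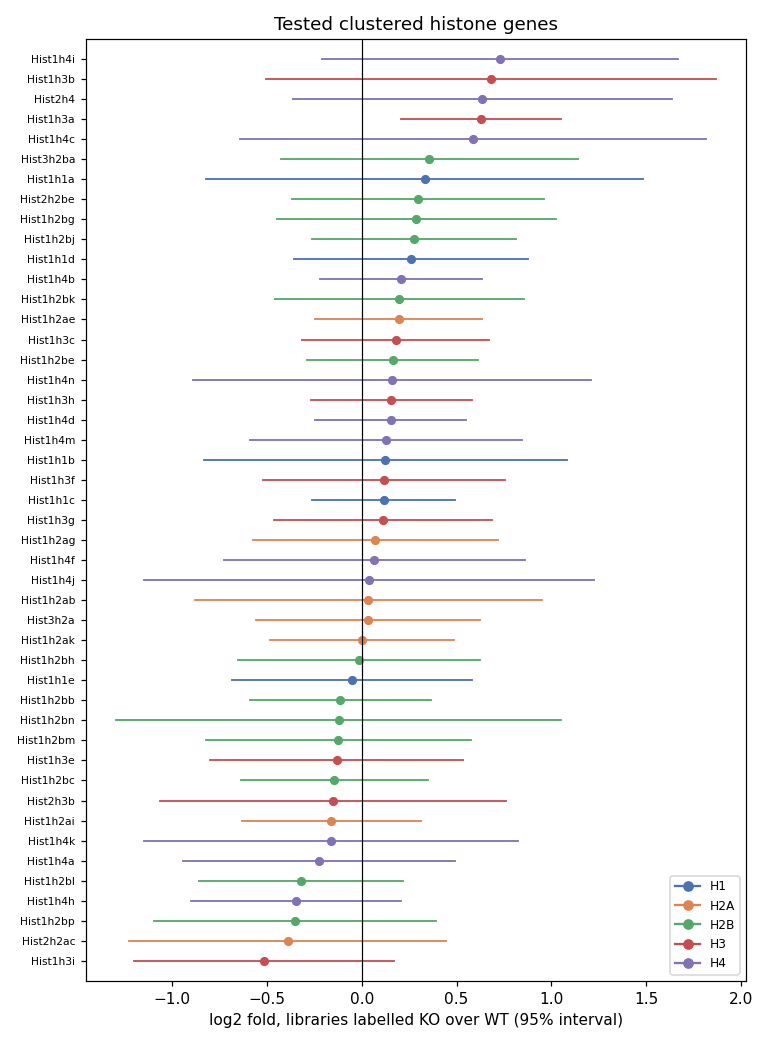
log2 fold, KO over WT label, for the 46 tested clustered histone genes, with 95% intervals from edgeR's quasi-likelihood fit and colour by histone class. The folds run from -0.51 (Hist1h3i) to 0.73 (Hist1h4i), and only the interval of Hist1h3a leaves out 0, before any adjustment for the number of genes.

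A sum over copies does not depend on which of them a read was assigned to, although reads dropped for matching several copies stay lost. All 69 members summed to 58.4 CPM ± 11.1 in the WT libraries and 64.5 CPM ± 2.72 in the KO libraries (SD, n = 3 each), a ratio of 1.10 with an exact two-sided permutation p of 0.4, where 0.1 is the smallest that 3 against 3 libraries allow. The difference of 6.13 CPM was smaller than the SD among the WT libraries. Its log2 value of 0.14 became 0.31 without WT replicate 1, 0.06 without WT replicate 2 and 0.08 without WT replicate 3.

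By class, H4 genes summed to 12.9 CPM ± 3.13 against 15.5 CPM ± 2.49 (WT and KO, SD, n = 3 each; exact permutation p = 0.3), and H3 genes to 14.1 CPM ± 3.40 against 15.9 CPM ± 0.737 (exact permutation p = 0.4). H2B genes summed to 15.4 CPM ± 1.28 against 16.8 CPM ± 1.09 (exact permutation p = 0.2, n = 3 each). H2A genes summed to 11.0 CPM ± 2.36 against 11.0 CPM ± 0.534 (exact permutation p = 1, n = 3 each), and H1 genes to 5.04 CPM ± 1.03 against 5.40 CPM ± 0.536 (exact permutation p = 0.7, n = 3 each). None of the classes separated the groups.

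The H3 genes were also summed by the protein they encode. The 4 genes that share a protein with Hist1h3a summed to 5.66, 4.55 and 5.27 CPM in WT replicates 1 to 3 and to 6.21, 7.25 and 5.87 CPM in KO replicates 4 to 6. All KO libraries lay above all WT libraries for this sum, with an exact permutation p of 0.1, the smallest possible. Hist1h3a, already named above for its p and its separated groups, is part of the sum, so this is not a second, independent result. The groups overlapped for each of the others, Hist1h3g, Hist1h3h and Hist1h3i, whose log2 folds were 0.11, 0.16 and -0.51. The 7 genes of the other H3 protein summed to 12.3, 7.25 and 7.21 CPM in the WT libraries and to 9.53, 9.46 and 9.39 CPM in the KO libraries, where WT replicate 1 was highest and the KO libraries nearly equal (exact permutation p = 1). In the smaller clusters the Hist2 genes summed to 4.41 CPM ± 0.598 against 5.03 CPM ± 0.889 (SD, n = 3 each; exact permutation p = 0.4), and the Hist3 pair, Hist3h2a and Hist3h2ba, to 1.17 CPM ± 0.200 against 1.30 CPM ± 0.316 (exact permutation p = 0.6). Hist4h4, the only gene of its cluster and too low to pass the filter, was counted 5, 3 and 6 times in the WT libraries and 7, 8 and 6 times in the KO libraries. In CPM this was 0.102 ± 0.0329 against 0.158 ± 0.0211 (SD, n = 3 each), with all KO libraries above all WT libraries and an exact permutation p of 0.1, at counts whose chi-square of 0.531 per degree of freedom is within counting error.

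Genes that make, process or handle histone RNA and protein showed no called difference either. Of 20 factors in histone transcription and mRNA processing, edgeR called 0 and DESeq2 0, and 0 passed an unadjusted p of 0.05. All 20 had a positive log2 fold, with a median of 0.04. For Slbp the log2 fold was 0.07 (adjusted p = 0.89 by edgeR), and for Npat, the coactivator that cyclin E with its kinase turns on at histone clusters, it was 0.10 (adjusted p = 0.75 by edgeR). The highest in level were Srrt, Ncbp1 and Upf1, which act on capped RNA and RNA decay, at 63.6, 55.7 and 51.7 CPM per kb.

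Of 20 chaperones and import factors of histones, edgeR and DESeq2 called 0, and an unadjusted p of 0.05 was passed by 1 on the higher and 2 on the lower side. These were Atrx, which deposits a variant H3 at repeats, with a log2 fold of 0.14, and Cabin1 and Ipo4, with -0.12 and -0.14, named here because of their p (edgeR adjusted p = 0.65, 0.63 and 0.62). The chaperones highest in level were Ssrp1, Rbbp7 and Nap1l1, at 148, 131 and 127 CPM per kb.

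Of 11 variant histone genes 10 were tested and 0 called by edgeR or DESeq2, with a median log2 fold of 0.05. H2afj, named because of its p, passed an unadjusted p of 0.05 on the lower side (log2 fold -0.12, edgeR adjusted p = 0.65). H3f3b and H2afz had log2 folds of -0.01 and -0.03. Of 32 S phase genes 0 were called by edgeR or DESeq2 and 0 passed an unadjusted p of 0.05, while all 32 had a positive log2 fold with a median of 0.12. Their summed level was 6026 CPM ± 879.1 against 6501 CPM ± 798.0 (WT and KO, SD, n = 3 each; exact permutation p = 0.5). Genes of such a list vary together between libraries, so the shared sign is not a count of independent changes.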

How the data were processed

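RNA-seq of 6 libraries was analysed from 1 table of raw read counts per gene symbol, as deposited by the authors. HTSeq 0.9.1, DESeq2 and mm10 are named without a role, per the submitters' processing notes. The sources used here do not give the aligner, annotation, strand setting or RNA selection. No column was left unused (0).

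Titles gave each library its genotype group. edgeR 4.0.16 in R 4.3.3 (filterByExpr, TMM, robust glmQLFit and glmQLFTest) was fitted to all deposited counts, and an adjusted p under 0.05 over all tested genes was a call. DESeq2 1.42.0 and limma-voom (limma 3.58.1) were alternatives, beside other scalings, filters and each library left out in turn. Group means of CPM sums were set against all exact two-sided permutations. The fits were tested on simulated counts. Gene models and transcript sequences came from GENCODE M21 on GRCm38, matched by symbol.

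Named were the 3 members per class with the highest CPM per kb, the 4 with the smallest p in each direction, members at 0, and set genes and the 3 highest of each related list. Members, lists and tests were chosen with earlier results of these data known.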

Additional observations from a re-analysis of the deposited data

How the results depend on the processing

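Members called stayed at 0 under all 13 alternatives (scaling, filters, DESeq2, limma-voom, an adjusted p under 0.01 and each library left out). The count over all genes, 1, became 10 with no filter on low counts and 89 with DESeq2, and ran from 1 to 119 with a library left out (119 without WT replicate 1). The summed member level kept its direction, with log2 values from 0.0585 to 0.312 with a library left out and 0.139 to 0.212 otherwise. The members' median log2 fold ran from -0.0081 (without WT replicate 2) to 0.27 (without WT replicate 1). The H1 sum's log2 value, 0.10, ran from -0.017 to 0.27 with a library left out. The H2A sum's, near 0 with all libraries, was -0.0046 with RLE factors, -0.0083 for members with exons under 1 kb, and ran from -0.089 to 0.19 with a library left out. The cause was not tested. No paired analysis was possible because the groups share no replicate number. Depth limits single members, since 16 of 69 had fewer than 20 counts in all.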
